A study of Homo sapiens with 8 samples.

Results

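The pairs described here are poly(A) sites of one gene that are both named by a genomic position and lie more than 2000 nt apart. They were chosen by the names of the sites alone: both sites of the pair had to be given as chromosome, position and strand, and the absolute difference of the positions had to be above 2000 nt. The deposited table that sets MDA-LM2 against MDA-MB-231 cells, called the metastasis table here, holds 3027 such pairs of its 27016 pairs, or 11.2%, and the one that sets sgHNRNPC against sgControl cells, called the knockdown table, holds 3881 of 31148, or 12.5%. Joined, they are 4460 different pairs of 36868, from 1415 of 7504 genes, and they link 4661 sites.

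The study sequenced mRNA 3′ ends to follow poly(A) site choice in metastatic breast cancer cells, in 8 samples that form 4 groups of 2 replicates. MDA-MB-231 is the parental human triple-negative breast cancer line, and MDA-LM2 is its derivative selected in vivo for metastasis to the lung. In sgHNRNPC cells, the RNA-binding protein HNRNPC was knocked down by CRISPR interference in MDA-MB-231, and sgControl cells carry a non-targeting guide in the same background. Each table has 1 row per pair of sites and no value of a single sample, so the depth of the libraries and the spread between replicates are unknown. The values by which the tables compare the groups were not used here. The results are therefore about which sites were listed for each comparison and where they lie, not about a change in their use, and a site listed in a table was not assigned to either of the cell types compared there.

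Most human genes can end their mRNAs at more than one place. Cleavage and polyadenylation factors recognise a signal upstream of the cleavage site and sequences rich in U or GU downstream of it, and proteins that bind nearby can hide or expose a site. Sites within the last exon give mRNAs with the same protein and a shorter or longer 3′ UTR, while sites in introns or alternative last exons can also change the coding sequence. HNRNPC binds runs of U in nascent transcripts and can cover sites that would otherwise be processed.

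Of the 98 CLIP-seq-derived HNRNPC sequences that the study placed in its reporter library, 95 matched transcripts of exactly 1 gene, and all 95 genes are in the tables. A pair over 2000 nt apart was listed for 27 of these 95 genes, or 28.4%, beside 18.9% of all genes in the tables. The library was a chosen set of sequences, and the difference was not tested. For the 5 of these genes with the longest run of T, the part of the sequence that holds the run is shown. These windows were cut from CLIP-seq-derived sequences of 79 to 128 nt, and where HNRNPC binds within those sequences was not measured. The run is in capitals, and each window has 30 bases, read 5′ to 3′ along the transcript.
TSPAN14: ttgagtaaTTTTTTTTTTTTTTaagattct
NDUFS1: ttatgtggcTTTTTTTTTTTTataagttat
PANK3: ttctgaggTTTTTTTTcttttacctttgag
DCUN1D5: ttttttccTTTTTTTaaaggaggtttttct
NCS1: actttgtgTTTTTTcggagggggttggtgg
The window of TSPAN14, a tetraspanin, lies at chr10:80519794-80519823 on the plus strand of GRCh38 and holds a run of 14 T. That of NDUFS1, a subunit of mitochondrial complex I, lies at chr2:206123330-206123359 on the minus strand with a run of 12. In PANK3, a pantothenate kinase of coenzyme A synthesis, the window is chr5:168551759-168551788 on the minus strand with a run of 8. All are in annotated 3′ UTRs, as are the remaining windows shown. DCUN1D5, which helps attach NEDD8 to cullins, has its window at chr11:103062206-103062235 on the minus strand with a run of 7. NCS1, a neuronal calcium sensor, has its window at chr9:130236145-130236174 on the plus strand with a run of 6, and it is the first by name of 6 genes with a run of that length.

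These genes differed widely in how many distant pairs they had. PANK3 had 5 pairs over 2000 nt apart in the metastasis table and 11 in the knockdown table, and its widest pair spans 9630 nt. NDUFS1 had 5 such pairs in both, with a widest pair of 5617 nt. TSPAN14 had 3 and 2 pairs, with a widest pair of 7777 nt. The widest pairs of TSPAN14 and NDUFS1 could fit within their longest annotated 3′ UTR exons, of 15151 and 9371 nt, and that of PANK3 is a little longer than its exon of 9079 nt. DCUN1D5 and NCS1 each had 1 pair in the metastasis table and 2 in the knockdown table, with widest pairs of 2694 and 2814 nt. For 26 of the 27 sequences, the window of 30 bases that holds the longest T run falls in an annotated 3′ UTR. Of the 27 sequences, 15, or 55.6%, hold a run of at least 5 T, beside 61.1% of the 95 sequences of all listed genes. Long T runs were thus no more frequent among the sequences of genes with distant sites than among all of them, with no test made. The distance from these sequences to the sites of the pairs was not measured, because the build of the sites is not named and they were not converted to GRCh38.

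The tables name no genome build. The submitters' processing notes name hg38, yet 13.8% of the sites of these pairs (metastasis table) and 14.2% (knockdown table) fall less than 5000 nt from the gene they belong to in GRCh38, although all of them are on its chromosome. Positions are therefore given as the tables write them, in a build that is not named, and the sequence around the sites was not read. Separations were compared with annotated lengths from GENCODE release 44 only as lengths, so a pair can be said to fit within a 3′ UTR by size and not to lie in it.

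In every pair over 2000 nt apart, both sites are on the same chromosome and strand and the proximal site lies upstream, in 3027 of 3027 pairs and in 3881 of 3881. The pairs are 40.9% of the 7394 pairs of 2 genomic sites in the metastasis table and 39.2% of 9899 in the knockdown table. They come from 1109 and 1264 genes. A gene has a median of 2 such pairs in both tables, and 48.4% and 42.6% of the genes have only 1. Taken in each table by itself, the 10 genes with the most pairs hold 8.42% of the pairs in the metastasis table and 7.65% in the knockdown table, so the pairs are spread over many genes.

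The limit of 2000 nt does not fall in a gap of the distribution. Just inside it are a pair of NUFIP2 at 2001 nt in the knockdown table, pairs of GLIPR1 and PDLIM5 at 2002 nt in both tables and of GPATCH2L and STK17B at 2002 nt in the knockdown table, and a pair of RBFOX2 at 2003 nt, also in both. Just outside are FLRT2 at 2000 nt in both tables, TOB2 at 2000 nt in the knockdown table, CRTAP at 1999 nt in the metastasis table and PPP4R2 and TRDMT1 at 1999 nt in the knockdown table.

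The median separation was 4258 nt in the metastasis table, with quartiles of 2765.5 and 9875.5 nt. In the knockdown table it was 3806 nt, with quartiles of 2653 and 7603 nt. The knockdown table thus lists more pairs, and they are on the whole closer. The excess lies below 10000 nt, where there are 2281 pairs in the metastasis table and 3125 in the knockdown table. Above 10000 nt the counts are nearly the same, 746 and 756. This can be seen in the histogram of separations, where the 2 curves run apart below 10000 nt and then join.

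**Figure D1:**
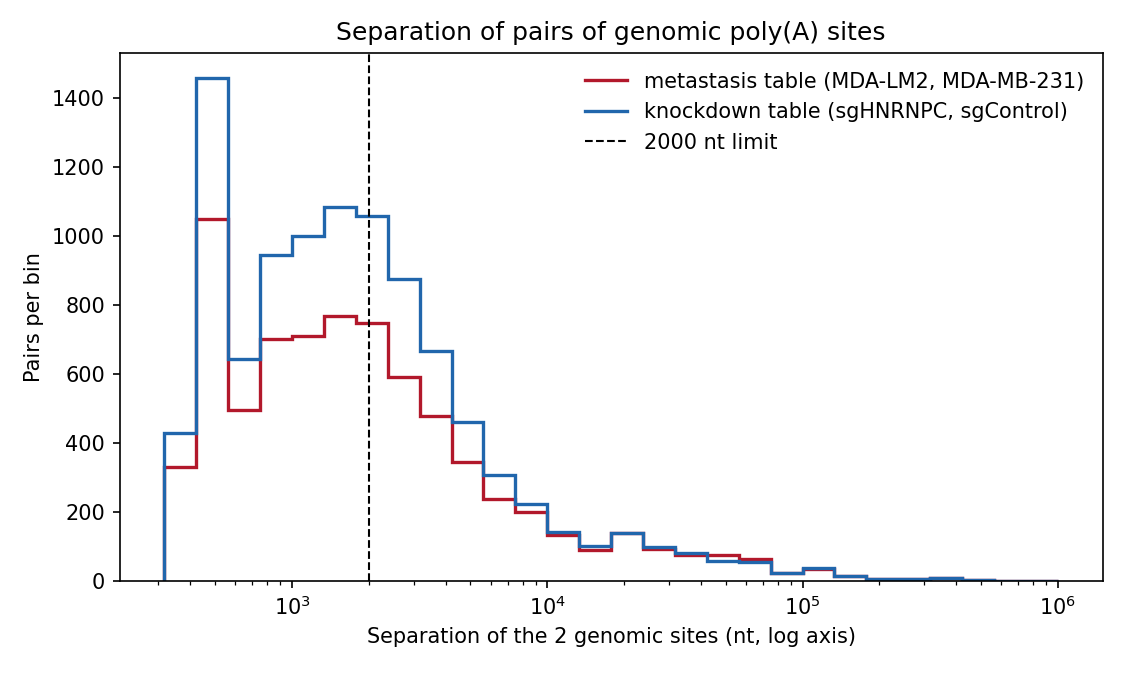
Number of pairs of 2 genomic poly(A) sites per bin of separation (nt, log axis) in the metastasis table (red) and the knockdown table (blue), with the limit of 2000 nt dashed; the few pairs below the first bin are not drawn. Above 10000 nt the tables hold 746 and 756 pairs, and between 2000 and 5000 nt they hold 1720 and 2429.

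Distant pairs often have other sites between them. Of the pairs over 2000 nt apart, 1002 in the metastasis table join neighbouring genomic sites of their gene, and the other 2025, or 66.9%, span at least 1 more. The knockdown table has 1007 that join neighbours, and 2874, or 74.1%, span more. The number of wide gaps without a genomic site is thus almost the same in both tables, and the difference in the number of pairs is almost wholly in pairs that span other sites. Over all neighbouring genomic sites, the median gap is 880.5 nt in the metastasis table and 791 nt in the knockdown table. Gaps under 400 nt are rare, at 11 of 4220 and 8 of 5234, so sites closer than this were mostly not listed apart.

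Where a gene with a pair over 2000 nt has 4 or more genomic sites, the widest gap was more often the first than the last. In the metastasis table it was the first gap in 167 of 399 genes (41.9%), an inner gap in 130 (32.6%) and the last in 102 (25.6%). The knockdown table was closer to even, with 196 of 560 genes (35.0%), 188 (33.6%) and 176 (31.4%). The first gap exceeded all later gaps together in 128 genes (32.1%) and 139 genes (24.8%). Among its genomic sites, such a gene has a lone first site, farther from the second than the second is from the last. Transcript ends were not placed, so whether any lies in that gap is unknown. No test was made of these shares.

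The genes with the most pairs show both arrangements. HNRNPU, which encodes a nuclear protein that binds RNA and chromatin, has the most, with 47 pairs over 2000 nt apart in each table, from 11 genomic sites that are the same in both. These sites are spaced over 15733 nt with no isolated group, and the widest pair runs from position 245027039 to 245011306 of chromosome 1 on the minus strand. MRPL42, a protein of the mitochondrial ribosome, has 26 pairs from the same 9 sites in both tables, spread over 11387 nt. EIF5B, a GTPase that joins the ribosomal subunits at initiation, has 23 pairs from the same 8 sites over 37041 nt. These 3 genes have identical genomic sites in both comparisons.

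In other genes the tables differ by a few sites, and the number of pairs differs much more, since each added site forms a pair with every other. PEX26, needed for import into peroxisomes, has 34 pairs in the metastasis table and 42 in the knockdown table, and 9 of its 12 sites are in both. CBX5, which encodes the heterochromatin protein HP1 alpha, has 23 and 41 pairs, and 8 of its 12 sites are in both. In CBX5 the sites at 11225 and 13297 nt from the first are listed in the knockdown table only and lie beyond the last site of the other table, at 9937 nt. IPO9, a nuclear import receptor, is the reverse case, with 33 pairs from 11 sites in the metastasis table and 18 pairs from 8 sites in the knockdown table. All 3 of its additional sites lie between sites that both tables list.

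KRR1, a factor in assembly of the small ribosomal subunit, has 18 pairs in the metastasis table and 24 in the knockdown table. The knockdown table adds a last site at 12379 nt. SERBP1, an mRNA-binding protein, has 18 and 23 pairs, and NUFIP2, an RNA-binding partner of FMRP, has 15 and 25. DNAJC10, a disulfide reductase of the endoplasmic reticulum, has 13 and 25, and the knockdown table again adds a last site, at 65090 nt. All 4 have a lone first genomic site followed by a group. The second genomic site is at 6827 nt in KRR1, at 16897 nt in SERBP1, at 23871 nt in NUFIP2 and at 59168 nt in DNAJC10. In the same order, the last genomic site listed in both tables is at 11951, 21718, 30340 and 63304 nt. Every site of such a group forms a distant pair with the lone first site.

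**Figure D2:**
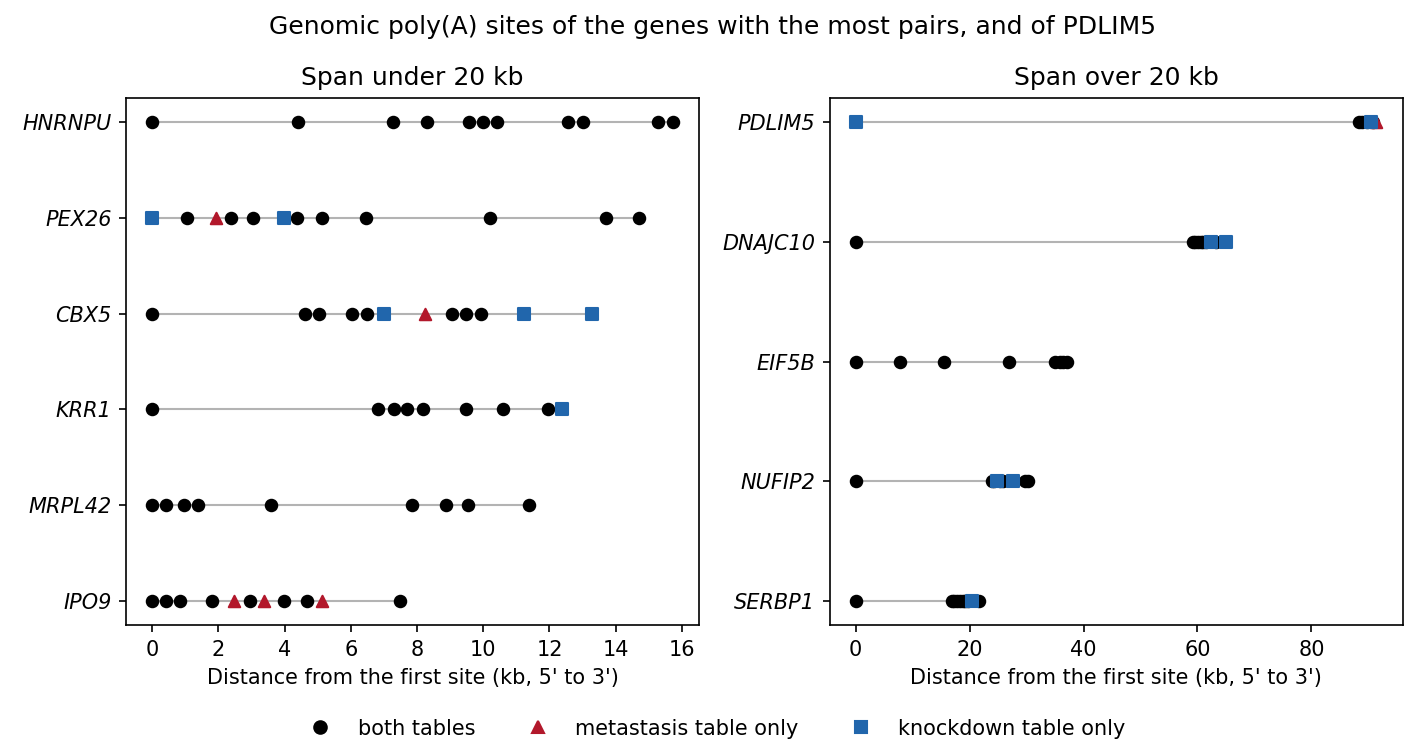
Genomic poly(A) sites of the 10 genes with the most pairs over 2000 nt and of PDLIM5, as distance from the first site (kb, in the direction of transcription); circles are sites listed in both tables, triangles in the metastasis table only and squares in the knockdown table only. HNRNPU, MRPL42 and EIF5B have the same sites in both tables, and in KRR1, DNAJC10, NUFIP2, SERBP1 and, in the knockdown table, PDLIM5 a lone first site precedes a group.

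The 10 genes with the widest pair that both tables list span more than 100000 nt each. DIAPH3, a formin that nucleates actin filaments, has the widest, 445577 nt, as its only pair in both tables, from position 60686143 to 60240566 of chromosome 13 on the minus strand. ARHGAP26 follows at 415882 nt and FAM172A at 340568 nt. PPP3CA, the catalytic subunit of calcineurin, reaches 323063 nt, and SH3KBP1, an adaptor in receptor endocytosis, 300717 nt. The annotated gene lengths, in the same order, are 498346, 458635, 493975, 324870 and 353624 nt, so each of these separations is shorter than the gene but comes to most of its length.

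The next in order are GNAQ, the alpha subunit of Gq, at 269699 nt, NAV2 at 185091 nt and DENND1B, an exchange factor for a RAB GTPase, at 174249 nt. TRIM44 follows at 147767 nt and ASH1L, a histone methyltransferase, at 143943 nt. TRIM44 differs from the rest of these 10 genes in having 11 pairs over 2000 nt apart in each table, from the same 6 sites. The others have between 1 and 6 pairs, and the sets of sites were the same in both tables for all but FAM172A and GNAQ. FAM172A has 4 sites in the metastasis table and 3 in the knockdown table, and GNAQ has 3 and 5.

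Of 5 genes named because the study names or uses them, PDLIM5 and KAT14 have distant genomic pairs. PDLIM5, a PDZ and LIM domain protein of actin structures, has 4 pairs in the metastasis table, the widest 3132 nt, and 8 in the knockdown table, the widest 90871 nt; 2 pairs are in both. The wide pairs come from 1 site, at position 95497186 of chromosome 4 on the plus strand, which is 88280 nt upstream of the next site and is listed in the knockdown table only. Its other sites form a group within the size of its longest annotated 3′ UTR exon, 4163 nt. The knockdown table gives the group a site at 90390 nt from the first that the metastasis table lacks, and the metastasis table ends with a site at 91412 nt that the knockdown table lacks. PDLIM5 is also among the 27 genes with a CLIP-seq-derived HNRNPC sequence. The longest run in that sequence has 5 T, and the window of 30 bases that holds it falls in an annotated 3′ UTR.

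KAT14, a subunit of a histone acetyltransferase complex, has 1 pair, the same in both tables, from position 18131587 to 18168559 of chromosome 20 on the plus strand, a separation of 36972 nt. This is far longer than its longest annotated 3′ UTR exon of 1044 nt. The reporter of the study used KAT14 poly(A) sites near enough to fit in 1 sequenced amplicon, so this distant pair is a different one. HNRNPC itself, and PABPC4 and PABPN1, which encode poly(A)-binding proteins, have no pair of 2 genomic sites. HNRNPC is listed in both tables by transcript ends alone, 4 in the metastasis table and 3 in the knockdown table, and its RNA level was not analysed here.

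The pairs were also divided by annotated lengths. In the metastasis table, 1883 of 3021 pairs (62.3%) are no longer than the longest annotated 3′ UTR exon of their gene, and 1134 exceed it but not the gene length. Of 3869 pairs in the knockdown table, 2715 (70.2%) could fit within that exon, and 1152 are longer but within the gene length. By size, then, most distant pairs could be tandem sites of 1 long 3′ UTR, and about as many longer pairs were listed in either table. The median separation of the pairs that could fit within the exon was 3112 nt and 3109 nt, and that of the longer ones 15734 and 14721 nt. Between 2000 and 5000 nt, 91.0% and 92.8% of pairs could fit within the 3′ UTR exon. Between 10000 and 50000 nt, 5.75% and 8.11% could, and above 50000 nt none did in either table.

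Pairs longer than the gene itself were found for 2 genes, named after their values were seen. AMD1, which encodes an enzyme of polyamine synthesis, has pairs of 56052 and 56569 nt in both tables beside an annotated gene length of 24110 nt. EIF4E, the cap-binding protein, has pairs of 50024 and 56995 nt in the metastasis table only, beside a length of 49858 nt. In these genes at least 1 listed site must lie outside the gene as GENCODE release 44 draws it.

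Genes with a distant pair are long and have long 3′ UTRs in the annotation. The median length of their longest 3′ UTR exon is 4312 nt in the metastasis table and 4525.5 nt in the knockdown table, beside 2345 and 2340 nt for all genes of the tables. The median gene length is 58990 and 58859 nt, beside 45198 and 43689 nt. A distant pair needs room, so longer lengths follow in part from how the pairs were chosen, and the difference was not tested. Almost all are protein coding, 99.8% in both tables, as are most genes of the tables, 97.3% and 97.0%. They have a median of 3 genomic sites and 1 transcript end, beside 1 genomic site for all genes and 2 transcript ends in the metastasis table and 1 in the other, and at most 11 genomic sites. A pair requires 2 genomic sites, so a median above that of all genes was fixed by the choice of pairs. Genes whose widest pair is more than 500 and up to 2000 nt have a median of 2 genomic sites in both tables. Their median longest 3′ UTR exon is 3029.5 and 2931 nt, and their median gene length is 43715 and 42939.5 nt.

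The shares of genes with a distant pair varied between chromosomes. They were lowest on chromosome 19, at 8.82% of its 340 genes in the metastasis table and 9.92% of 373 in the knockdown table, leaving out chromosome Y, which has 1 gene. They were highest on chromosome 13, at 23.3% of 133 genes and 24.2% of 132. Chromosome 19 is known for dense, short genes and chromosome 13 for sparse ones. No test was made.

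The tables share most of their distant pairs. Both list 2448 pairs, which are 80.9% of those in the metastasis table and 63.1% of those in the knockdown table, and the pairs come from 934 genes. The metastasis table has 579 pairs of its own, and 1433 are in the knockdown table only. Counted by genes, 958 have a distant pair in both tables, 151 in the metastasis table only and 306 in the knockdown table only, and in 539 genes every distant pair is in both. For pairs more than 500 and up to 2000 nt apart the shares were 83.4% and 60.4%, and for pairs within 500 nt they were 88.6% and 64.6%. Among these 3 classes the distant pairs had the lowest share in the metastasis table and the middle one in the knockdown table, with no test made.

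**Figure D3:**
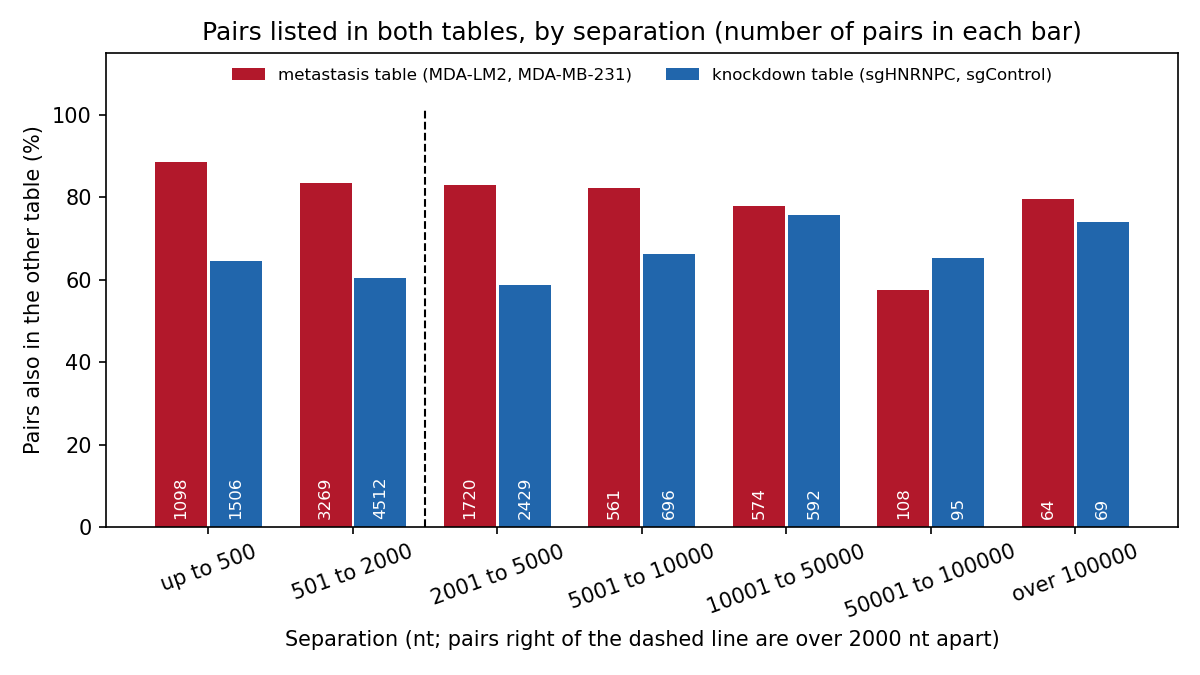
Share of pairs of 2 genomic sites in each table that the other table also lists (%, bars; red, metastasis table; blue, knockdown table), by separation in nt, with the number of pairs written in each bar. In the knockdown table the share is 58.7% at 2000 to 5000 nt and 75.7% at 10000 to 50000 nt, and in the metastasis table it is 82.9% and 78.0%.

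Within the distant pairs, sharing changed with separation in a different way in each table. In the knockdown table it was 58.7% at 2000 to 5000 nt, 66.2% at 5000 to 10000 nt and 75.7% at 10000 to 50000 nt. In the metastasis table it was 82.9%, 82.2% and 78.0% over the same ranges. The lowest share there, 57.4%, was among the 108 pairs 50000 to 100000 nt apart, and it was 79.7% among the 64 pairs above 100000 nt. For the knockdown table these shares were 65.3% of 95 pairs and 73.9% of 69. The pairs of a gene share sites, so they are not independent, and these shares were not tested.

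The pairs that only the knockdown table lists were mostly of 3′ UTR size. Of those with an annotated 3′ UTR, 1156 of 1426 (81.1%) could fit within the longest 3′ UTR exon, beside 1559 of 2443 (63.8%) of the pairs in both tables and 324 of 578 (56.1%) of the pairs that only the metastasis table lists. The longer pairs were nearly balanced, with 270 in the knockdown table only and 254 in the metastasis table only. Over both size classes, the median separation was 3456 nt for pairs of the knockdown table only, 4120.5 nt for shared pairs and 4895 nt for pairs of the metastasis table only. Library depth and the filter that decides which sites are listed are not known for either table, so their part in this difference was not tested.

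**Figure D4:**
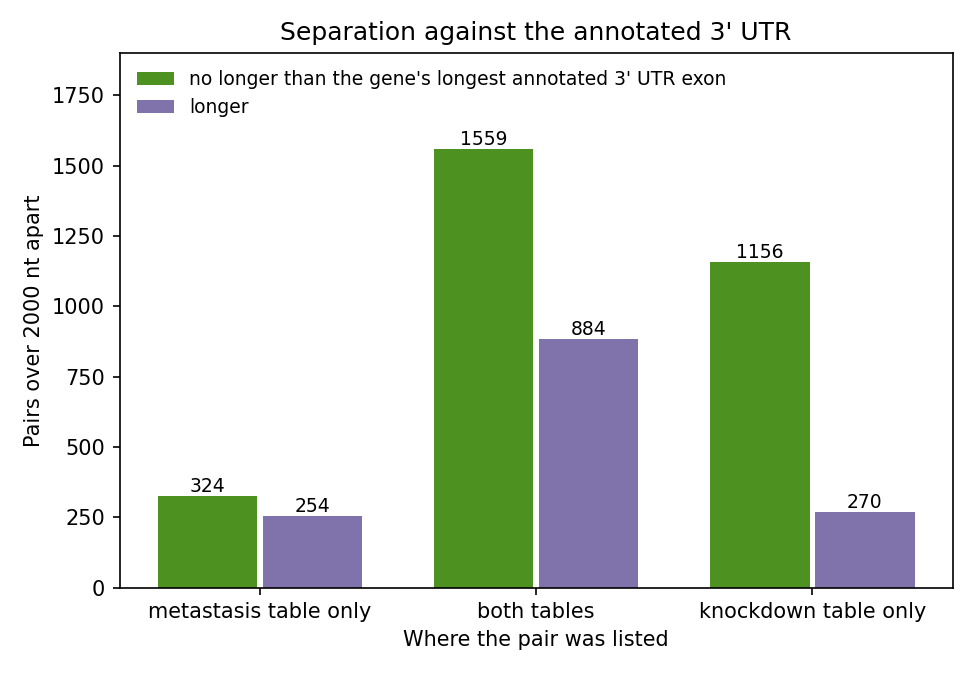
Number of pairs over 2000 nt apart by where they were listed (horizontal axis) and by whether the separation is within the longest annotated 3′ UTR exon of the gene (green) or longer (purple). The excess of the knockdown table is in the pairs of 3′ UTR size, 1156 beside 324, while the longer pairs number 270 and 254.

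Both tables list every pair of the sites they hold for a gene, in 1109 of 1109 and 1264 of 1264 genes with a distant pair, so a pair is missing from a table because a site is. Of the pairs only the knockdown table has, the metastasis table lacks the distal site alone in 720, the proximal site alone in 466, both in 187 and the gene in 60. Of the pairs only the metastasis table has, the knockdown table lacks the distal site alone in 263 and the proximal alone in 263, both in 29 and the gene in 24. The lack was thus even in one direction and leaned to the distal site in the other, 60.7% of the pairs that lacked 1 site. For pairs of the knockdown table more than 500 and up to 2000 nt apart this share was 54.9%, and within 500 nt it was 47.3%. In the metastasis table the shares of these 2 nearer classes were 52.3% and 55.4%. A site can belong to many pairs, so 1 missing site can be counted many times here, and these shares were not tested. Counting each site once, and only in genes that the other table also lists, 279 of 1219 most distal sites of the knockdown table (22.9%, 95% Wilson interval 20.6 to 25.3) and 210 of 1219 most proximal ones (17.2%, 15.2 to 19.4) are absent from the metastasis table, as are 430 of 1971 sites between them (21.8%). Of the most distal sites of the metastasis table, 113 of 1086 (10.4%, 8.73 to 12.4) are absent from the other, and of the most proximal 122 of 1086 (11.2%, 9.49 to 13.3). Of the sites between them, 113 of 1426 (7.92%, 6.63 to 9.44) are absent. By sites, the most distal ones of the knockdown table were absent about as often as those between, and the most proximal ones less often. The intervals cover counting error alone.

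The ends of the listed range were the same in most genes. Among the 958 genes with a distant pair in both tables, 728 (76.0%) have the same first and last genomic site in both. The last site is farther downstream in the knockdown table in 107 genes (11.2%), by a median of 1111 nt, and in the metastasis table in 49 (5.11%), by a median of 973 nt. The first site is farther upstream in the knockdown table in 62 genes (6.47%), by a median of 993 nt, and in the metastasis table in 40 (4.18%), by a median of 1958 nt. More genes thus reach farther in the knockdown table at either end, while the median shift of the first site is longer in the metastasis table. The extremes, named after their values were seen, are ARID4B, whose last site is 46342 nt farther in the knockdown table, and PRRC2C, whose last site is 49754 nt farther in the metastasis table. At the upstream end they are CHD9, a chromatin remodeller, by 168648 nt in the knockdown table, and RASAL2, a RAS GTPase-activating protein, by 152435 nt in the metastasis table.

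The pairs were also counted in 11 gene lists, beside a background of 17.0% of all genes with a distant pair in the metastasis table and 18.6% in the knockdown table. Only genes with at least 2 genomic sites can have such a pair, and of those genes 46.2% and 46.7% had one. Lengths given for their genes are those of the widest pair. Among hnRNP and SR proteins, which bind pre-mRNA and guide its splicing, 11 of 32 listed genes (34.4%) and 10 of 34 (29.4%) have one. Of the genes with at least 2 genomic sites, these are 11 of 21 and 10 of 18. Beside HNRNPU these include SYNCRIP, with a widest pair of 14172 nt in both tables, and HNRNPDL, with 5168 nt in both. HNRNPA2B1 reaches 5984 nt in the metastasis table and 5117 nt in the knockdown table, and SRSF3 2119 nt in both. HNRNPUL1 has a pair of 14940 nt in the metastasis table only. The widest pair had the same length in both tables for HNRNPU, SYNCRIP, HNRNPDL, HNRNPA3, HNRNPH3, PTBP3 and SRSF3.

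Proteins that act on 3′ UTRs had a distant pair in 10 of 29 genes (34.5%) in the metastasis table and 8 of 30 (26.7%) in the knockdown table. With at least 2 genomic sites required, the counts were 10 of 18 and 8 of 16. FXR1, a relative of the fragile X protein, has widest pairs of 25995 and 26660 nt. The list also holds Argonaute genes, whose proteins carry microRNAs, AGO3 with 15572 nt and AGO2 with 10785 nt in both tables, and AGO1 with 6555 and 8646 nt. ELAVL1, which stabilises mRNAs rich in AU, has 3118 nt in both. PABPC1, the main cytoplasmic poly(A)-binding protein, has 5761 nt in the metastasis table only, and so has KHSRP, an mRNA decay factor, with 5441 nt.

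Of the cleavage and polyadenylation factors, 3 of 14 listed genes (21.4%) have a distant pair in both tables. These are 3 of 6 and 3 of 7 genes with at least 2 genomic sites. CPSF2, a subunit of the cleavage complex, reaches 8425 nt in the metastasis table and 8936 nt in the knockdown table. WDR33, which helps recognise the poly(A) signal, reaches 2142 and 2585 nt, and CPSF6, a subunit of cleavage factor I, 2220 nt in both. The genes known for tandem 3′ UTRs had one in 5 of 17 (29.4%) and 6 of 17 (35.3%). Among those with at least 2 genomic sites the counts were 5 of 14 and 6 of 15. TIMP2, an inhibitor of metalloproteinases, has 17490 nt in both. CCND1, the cyclin of early cell cycle entry, has a widest pair of 10108 nt in the metastasis table and 2023 nt in the knockdown table.

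Actin and PDZ-LIM genes had a distant pair in 8 of 26 (30.8%) and 9 of 24 (37.5%). Of those with at least 2 genomic sites, 8 of 13 and 9 of 12 had one. Beside DIAPH3 and PDLIM5 they include talin, TLN1, with 23420 nt, non-muscle myosin, MYH9, with 18428 nt, ezrin, EZR, with 17402 nt and filamin, FLNA, with 15290 nt, each the same in both tables. Integrin and matrix genes had one in 7 of 26 (26.9%) and 6 of 24 (25.0%), or 7 of 14 and 6 of 11 with at least 2 genomic sites. ITGB1, the beta chain shared by many integrins, has 11186 nt in both tables. CD44, the hyaluronan receptor, has 39530 nt and COL4A2, a basement membrane collagen, 56488 nt, both in the metastasis table only, and ITGA1 has a widest pair of 46239 nt there and of 3838 nt in the knockdown table. ITGAV, an integrin alpha chain, has 4778 nt in the knockdown table only.

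Genes of MAP kinase, PI3K and RAS signalling had a distant pair in 8 of 28 (28.6%) and 10 of 28 (35.7%). With at least 2 genomic sites required, these were 8 of 14 and 10 of 21. EGFR, a growth factor receptor, has 4819 nt in both tables, and PIK3CA, a catalytic subunit of PI3K, 2410 and 3547 nt. NF1, a RAS GTPase-activating protein, has 122834 nt in the knockdown table only. In RAB GTPases and membrane traffic the shares were 10 of 41 (24.4%) and 12 of 43 (27.9%). Among those with at least 2 genomic sites the counts were 10 of 27 and 12 of 31. RAB11A has 13627 nt and RAB14 11589 nt in both, while RAB5A, of early endosomes, has 33605 nt in the metastasis table and 6165 nt in the knockdown table.

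Ubiquitin ligases and proteasome genes had one in 11 of 42 (26.2%) and 12 of 46 (26.1%). Of those with at least 2 genomic sites, 11 of 24 and 12 of 25 had one, near the share over all such genes. SMURF2, a ligase acting on TGF-beta signalling, has 115745 nt in both tables, HUWE1 29056 nt and ITCH 19563 nt, also in both. MDM2, the ligase of p53, has 5866 nt in the knockdown table only. Chromatin modifiers and remodellers had one in 10 of 49 (20.4%), above the background of the metastasis table, and in 7 of 47 (14.9%), below that of the knockdown table. With at least 2 genomic sites required, the counts were 10 of 16 and 7 of 16. CHD4 has 20305 nt and HDAC2 5552 nt in both, and KMT2A, a histone methyltransferase, has 23587 nt in the metastasis table and 2493 nt in the knockdown table.

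Ribosomal proteins, whose mRNAs are known for short 3′ UTRs, had a distant pair in 6 of 43 (14.0%) and 7 of 44 (15.9%), a little below the background in both tables. Of those with at least 2 genomic sites, 6 of 18 and 7 of 20 had one. RPL14 has 5662 nt and RPL4 4161 nt in both. The lists hold few genes and no list was tested, so none is set apart from the other genes by these counts.

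**Figure D5:**
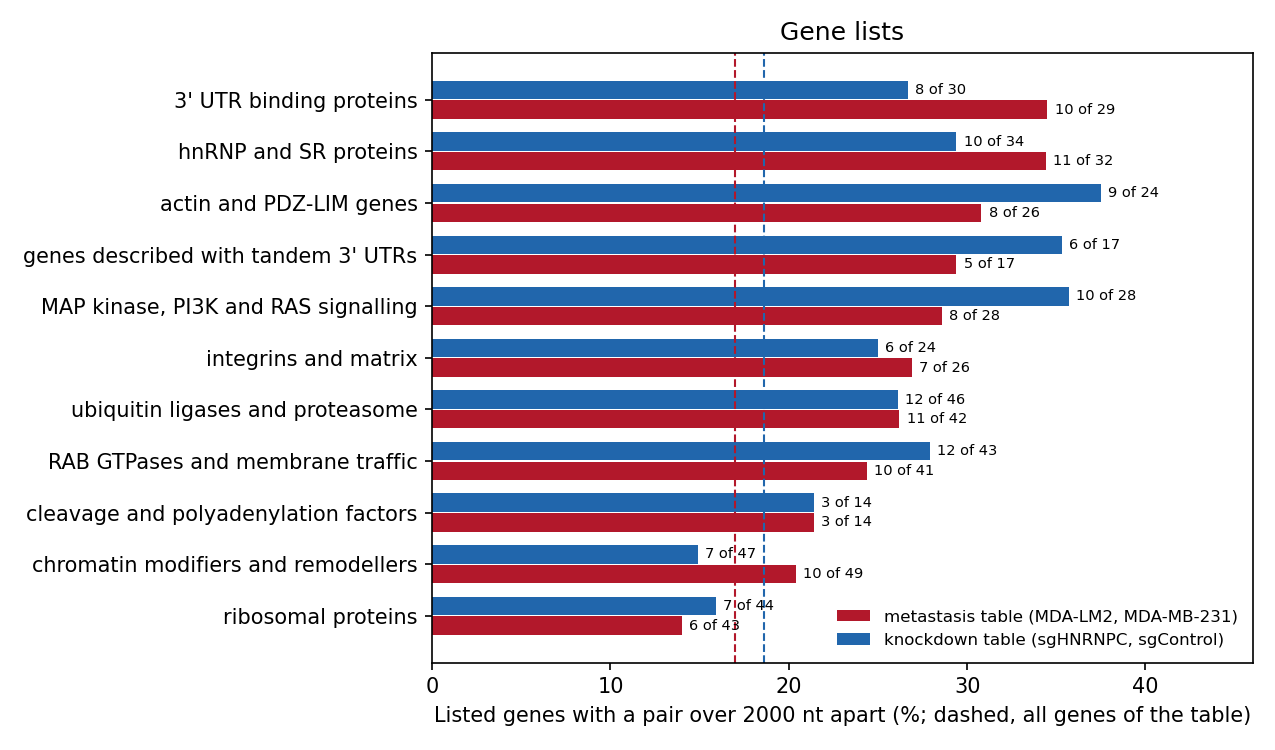
Share of the genes of each list that have a pair over 2000 nt apart, of those the table lists (%, bars with counts; red, metastasis table; blue, knockdown table); dashed lines are the shares over all genes of each table, 17.0% and 18.6%. Ribosomal proteins lie a little below both lines, at 14.0% and 15.9%, and chromatin genes lie above the line of the metastasis table, at 20.4%, and below that of the knockdown table, at 14.9%. The shares also vary with how many genes of a list have at least 2 genomic sites, which a pair requires.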

How the data were processed

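Libraries of mRNA 3′ ends were made from 8 samples. Per the study's methods, the authors used Salmon 0.14.1 to count 3′ ends taken from Gencode release 33, and fitted a multinomial logistic regression (APAlog) to pairs of poly(A) sites; the submitters' notes also name UMI-tools and hg38. Of the deposited columns, those with site names, strand, gene and symbol were used. The 3 columns with the authors' log change of the proximal-to-distal ratio, its p-value and its q-value were not used. No filter was applied beyond the rule for the pairs. Lengths and GRCh38 coordinates came from GENCODE release 44, and CLIP-seq-derived sequences were placed by exact match. The parsing of sites was tested on simulated data. Genes named are the 10 with the widest shared pair, the 10 with the most pairs summed over both tables, 5 genes that the study names or uses, those nearest the limit, examples from 11 gene lists, and 5 with a CLIP-seq-derived sequence; AMD1, EIF4E, ARID4B, PRRC2C, CHD9 and RASAL2 were named after their values were seen. Some genes counted in the lists are not reported by name here. Members and lists were chosen with earlier results of these data known. The summaries of gaps, outermost sites and pairs listed in 1 table were chosen after the tables were seen. The tools were scipy 1.17.1, pandas 2.3.3, matplotlib 3.10.9 and numpy 2.4.6, run in Python 3.11.15.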

Additional observations from a re-analysis of the deposited data

How the results depend on the processing

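Values are given for the metastasis table first. A limit of 1000 nt gave 4814 and 6420 pairs, and one of 5000 nt gave 1307 and 1452. The share also listed in the other table was 84.2% and 73.9% by genes in place of pairs, and 78.2% and 70.4% over 5000 nt. The median separation was 4654 and 4178.5 nt by the widest pair of each gene, and 4656.5 and 4308 nt for neighbouring sites. By the widest pair of each gene, 44.3% and 37.9% exceeded the longest 3′ UTR exon. These were 14 of 30 alternatives; the other 16 stayed near the reported values, among them leaving out the 10 genes with the most pairs summed over both tables, which was chosen after seeing the data. Requiring the same chromosome and strand removed no pair and so shows no stability. No paired analysis was possible because neither table gives values by sample, and for the same reason no replicate was left out. Depth is unknown, so whether a site missing from a table was unused could not be told.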
